A study of Homo sapiens with 3 samples.

Results

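Carbonic anhydrases are zinc enzymes that convert carbon dioxide and water to bicarbonate and a proton, and the reverse. This section describes 8 human family genes, CA2, CA3, CA5B, CA8, CA9, CA11, CA12 and CA13, in RNA-seq of cells labelled DU145. They were chosen by gene name from a list that was drawn up with the counts of these libraries known, and they are 8 of the 58735 genes in the deposited files. CA3 was also among the genes that the study took forward from its own comparison of these libraries. By RT-qPCR the study reported CA3 as significantly higher in its PD-L1 knockdown group, a measurement not analysed here. Which values selected the other 7 is not recorded. The levels and differences of the 8 genes are therefore a description, and no p-value is printed for any of them. Where members that passed a threshold are counted or named, the share of all genes is set beside them and nothing is read from it. Of the 8, reads were counted for 7, and 6 reached the minimum of 10 summed counts that the fit over all genes required.

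DU145 is an established cell line from a human prostate cancer whose growth does not need androgen. The sample labels and the methods name it, whereas the design text of the series names BCPAP cells, and labels and methods differ in the medium. To look for functions of PD-L1, the membrane ligand encoded by CD274, beyond immune suppression, the study infected DU145 cells with lentivirus carrying a short hairpin RNA against PD-L1 in the pLKO vector. The methods give cells with the empty vector as the control and a selection of stable lines with puromycin, while their RNA-seq section names the control only as DU145 cells. There was 1 control library and there were 2 libraries labelled PD-L1 knockdown, named here PD-L1 knockdown 1 and 2. The methods name 2 hairpin lines for RNA-seq but list the sequence of 1 hairpin. The hairpin and the library cannot be told apart, and nothing states that the libraries came from separate cultures, so every spread given here is one between these libraries and may be technical.

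Members of the family differ in where they work. Some are dissolved in the cytosol, some sit in mitochondria, some are anchored in the cell membrane with the active site outside, and a few have lost zinc ligands and catalysis and are known as carbonic anhydrase-related proteins. In tumour biology the family is best known for CA9 and CA12, membrane enzymes that help acid-producing cells to hold their internal pH, CA9 being a classical target of the hypoxia-inducible factors.

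The loss of zinc ligands was visible in the coding sequences themselves. The active-site zinc is held by 3 histidines, and in an alignment of the 15 translated family genes to CA2 histidine codons stood at all 3 sites in 12 genes and in 6 of the 8 members. CA11 had a histidine codon at 0 of the 3 sites, CA8 at 2 and CA10, which is not a listed member, at 1. The stretch that spans the 3 sites is shown for 4 members because it separates the catalytic CA5B, CA9 and CA12 from the acatalytic CA11. Capitals mark the codons at the zinc sites, and each stretch is coding sequence joined across exons 4 and 5 of the GENCODE transcript, read 5′ to 3′ on the coding strand of GRCh38.
CA5B: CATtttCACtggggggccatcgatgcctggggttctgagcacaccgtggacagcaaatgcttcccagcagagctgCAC
CA9: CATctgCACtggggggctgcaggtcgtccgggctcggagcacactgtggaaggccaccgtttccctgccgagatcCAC
CA12: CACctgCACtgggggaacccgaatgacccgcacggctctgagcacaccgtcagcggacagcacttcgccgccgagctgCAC
CA11: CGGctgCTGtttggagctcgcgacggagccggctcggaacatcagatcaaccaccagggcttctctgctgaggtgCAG
The genomic spans of these stretches, introns included, run on chromosome X from 15772543 to 15774307 (plus strand) for CA5B, on chromosome 9 from 35676135 to 35676302 (plus) for CA9, on chromosome 15 from 63342092 to 63345551 (minus) for CA12 and on chromosome 19 from 48639878 to 48640166 (minus) for CA11. The CAT and CAC codons of CA5B, CA9 and CA12 encode histidine, and the CGG, CTG and CAG codons of CA11 do not. Over its aligned residues CA13 shared 59.6% with CA2, CA3 58.5%, CA5B 51.9%, CA8 41.3%, CA12 34.9%, CA9 34.4% and CA11 32.8%.

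The control library held 14733088 counts, PD-L1 knockdown 1 held 14738298 and PD-L1 knockdown 2 held 15786457. A count of 0 allows up to 3 counts, which at these depths are 0.204, 0.204 and 0.190 CPM, the count scaled to the library total. The targeted gene, CD274, was counted 204 times in the control, 213 times in PD-L1 knockdown 1 and 224 times in PD-L1 knockdown 2. It was thus not lower where the label says knockdown, and its ratios to the control, with their 95% counting intervals, were 1.05 (0.861 to 1.28) and 1.03 (0.845 to 1.25). The methods state that stable lines were checked by Western blotting, and the study shows such a blot of PD-L1 for its knockdown DU145 cells. Protein was not analysed here. Every direction given here is therefore between libraries named by their labels. The epithelial keratins KRT8 (16068 to 19056 counts) and KRT18 (7784 to 8668) and EPCAM (755 to 907) were present in all 3 libraries, whereas KLK3 and TMPRSS2, genes of the androgen response, had 0 counts. Of the markers of other cell types given here, those of leukocytes, T cells and endothelium were at or near 0, with 0 to 3 counts of PTPRC, 2 to 6 of PECAM1 and 0 of CD3E, while the fibroblast collagen COL1A1 had 98 to 149. In the control's file the count column is headed with the name of RBM45, an RNA-binding protein gene, which had 150, 160 and 152 counts in the control and PD-L1 knockdown 1 and 2. All intervals are computed from the counts of single libraries and cover counting error only. PCR copies of a molecule could not be recognised, so the intervals may be too narrow even for that error. In bulk RNA a change in the number of cells that express a gene and a change in RNA per cell cannot be told apart.

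Carbonic anhydrase RNA in these cells came mainly from the cytosolic genes. The FPKM scale divides counts by gene length and depth to set levels of different genes side by side. For the members the length is that of all annotated exons together, so their order depends on it. In counts, CA13 stood above CA2 in every library, at 235, 216 and 229 against 179, 186 and 171. In FPKM, CA2 stood at the top with 5.68 in the control, 5.93 in PD-L1 knockdown 1 and 5.10 in PD-L1 knockdown 2. CA13 (2.62 to 2.86 FPKM) and CA11 (1.62 to 3.42 FPKM) came next and overlapped each other. Among the other listed genes CA5B, CA12 and CA3 lay between 0.0292 and 0.493 FPKM in the 3 libraries, with overlapping ranges, CA8 did not exceed 0.0547 FPKM and CA9 had no count. CA14, a membrane enzyme that is not a listed member, ranged from 0.776 to 1.08 FPKM, below every library of CA11 and above every library of CA5B. The plot of FPKM by gene shows this order.

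**Figure D1:**
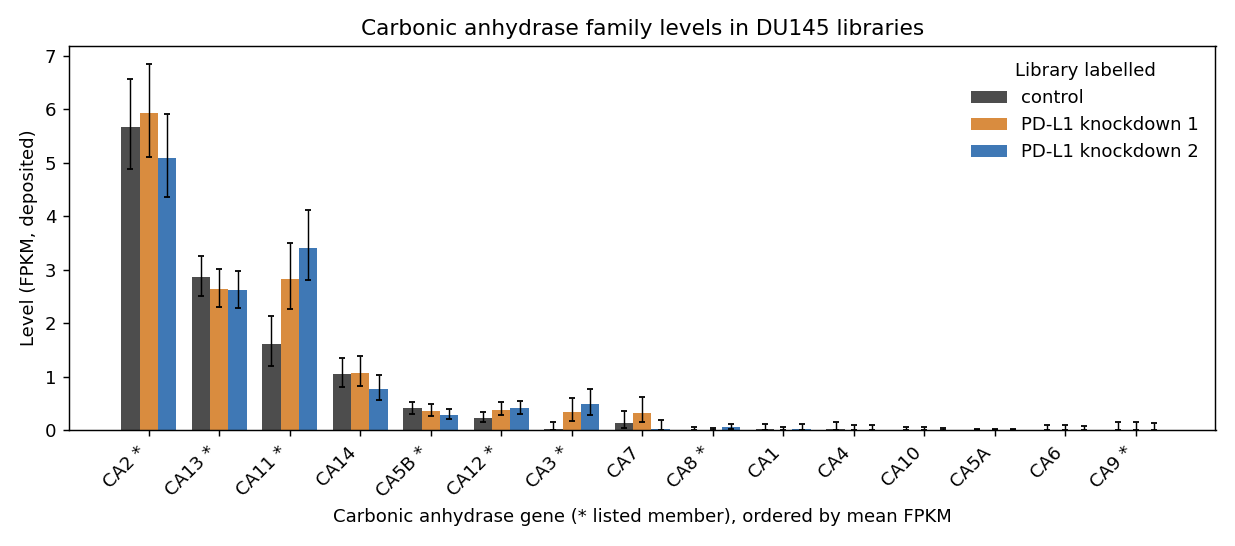
Level in FPKM (vertical axis) of the 15 carbonic anhydrase genes in the control library and both libraries labelled PD-L1 knockdown, with listed members marked by an asterisk; bars are single libraries and error bars are exact 95% Poisson intervals of the count. CA2 is highest in all 3 libraries at 5.10 to 5.93 FPKM, and CA9 has no count.

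Grouped by class over the 15 genes, the 5 cytosolic genes held 72.3% of the family's FPKM in the control, 66.5% in PD-L1 knockdown 1 and 62.5% in PD-L1 knockdown 2. The 3 acatalytic genes, in which CA11 was the main one, held 13.5%, 20.4% and 26.2%. The membrane genes held 10.8%, 10.5% and 9.0%, the mitochondrial genes 3.40%, 2.62% and 2.24%, and the secreted CA6 had no count. The share of the acatalytic genes was thus higher in both libraries labelled knockdown than in the control, with 1 control library and no test. The 8 members together had 543, 589 and 623 counts, and ratios of their summed counts to the control of 1.09 (0.968 to 1.23) and 1.07 (0.954 to 1.20), so that the total was not distinguishable from the control at this depth.

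CA5B, the widely expressed mitochondrial form that supplies bicarbonate to the carboxylases of the matrix, lies on the plus strand of chromosome X from 15688830 to 15788409 (ENSG00000169239). It had 52 counts in the control, 46 in PD-L1 knockdown 1 and 40 in PD-L1 knockdown 2. Both libraries labelled knockdown lay below the control, but their ratios to it were 0.889 (0.584 to 1.35) and 0.718 (0.464 to 1.11), intervals that include 1, and the log2 fold change was -0.32 (SE 0.38). CA5B has a pseudogene copy, CA5BP1, which overlaps it on the same strand with 29 shared exonic bases, and 2.64% of its 31-base words are found in that copy and 9.35% in any other gene, so that the assignment of its reads is uncertain. Over 651 aligned coding bases a transcript of CA5B and one of CA5BP1 matched at 584 (89.7%). The 60-base stretch with the most differences between them is shown to make visible where reads of the pair can be separated, with the 15 differing bases in capitals; it starts at base 27 of the 951 coding bases of CA5B, in exon 2 of 8, at 15750050 to 15750109 on the plus strand of chromosome X (GRCh38).
CA5B: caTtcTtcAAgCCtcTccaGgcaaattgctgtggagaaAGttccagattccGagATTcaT
CA5BP1: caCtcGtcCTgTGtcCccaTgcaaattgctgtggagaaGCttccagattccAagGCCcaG
CA5BP1 had 156, 126 and 124 counts, more than CA5B in every library, and a log2 fold change of -0.36 (SE 0.23, edgeR adjusted p = 0.555). Summed over the gene and the copy, the counts were 208, 172 and 164, with ratios to the control of 0.831 (0.675 to 1.02) and 0.736 (0.596 to 0.908). The sum is mostly CA5BP1. It does not depend on how counted reads were split between the gene and the copy, but would lack any reads dropped for matching both. Antisense INE2, which covers 22.0% of the exonic bases of CA5B, had 0 counts in all 3 libraries, and of the genes that overlap CA5B without sharing exonic bases AC112497.1 had 17, 23 and 13 counts and RF00409 had 0. The liver form CA5A had 0 counts as well.

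Of the membrane enzymes, CA9 (chromosome 9, 35673856 to 35681159, plus strand, ENSG00000107159) had 0 counts in every library. A count of 0 allows up to 0.121 FPKM in the control, 0.122 in PD-L1 knockdown 1 and 0.114 in PD-L1 knockdown 2. The opposite-strand gene ARHGEF39 shares 643 bases (38.5%) of the exons of CA9 and had 560, 477 and 465 counts, and whether counting used the strand is not stated. On the 1027 bases of CA9 that are not shared, 3 counts equal at most 0.198 FPKM. The start of CA9 is shown because the gene is the family's known hypoxia target, and the capitals mark the core ACGTG of the hypoxia response element as it reads from the other strand. The 30 bases lie at 35673898 to 35673927 on the plus strand of chromosome 9 (RefSeq, GRCh38.p14).
CA9: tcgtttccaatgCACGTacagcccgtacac
Both strands of the 120 bases before the RefSeq start were searched, and the 1 match began 18 bases before that start, which itself lies 72 bases inside the gene as the files give it. Of 35116 promoters of this length 10.5% hold ACGTG. CA12 and CA5B had no match in their 120 bases, and the promoter table matched these 3 of the 8 members. The RefSeq starts of CA12 and CA5B lie 315 and 49440 bases inside the gene spans given here, so the starts of those spans were not searched. A match is a run of letters, not a bound site.

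CA12, the other tumour-associated membrane enzyme, lies on the minus strand of chromosome 15 from 63321378 to 63382161 (ENSG00000074410). It had 25 counts in the control, 42 in PD-L1 knockdown 1 and 48 in PD-L1 knockdown 2. Both libraries labelled knockdown lay above the control, with ratios of 1.69 (1.005 to 2.89) and 1.79 (1.08 to 3.04), and differed little from each other (ratio 1.06, 0.688 to 1.65). The log2 fold change of the fit, 0.80 (SE 0.45), was less than 2 standard errors from 0. In FPKM, CA12 stood at 0.230, 0.389 and 0.415, low beside CA14, whose counts were 60, 61 and 47 (log2 fold change -0.19, SE 0.34, edgeR adjusted p = 0.873). Of the 31-base words of CA12, 0.71% occur in another gene. The glycolipid-anchored CA4 had 1 count in the control and 0 in the others.

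CA11, a secreted carbonic anhydrase-related protein without catalysis, lies on the minus strand of chromosome 19 from 48637942 to 48646312 (ENSG00000063180). It had 50 counts in the control, 87 in PD-L1 knockdown 1 and 112 in PD-L1 knockdown 2. Both libraries labelled knockdown were above the control, with ratios of 1.75 (1.22 to 2.53) and 2.09 (1.49 to 2.98). Between themselves their ratio was 1.20 (0.897 to 1.60). The log2 fold change was 0.94 (SE 0.31), which left CA11 just under the log2 fold change of 1 that the fold rule below requires. Among the members in the fit, only CA3, with 1 count in the control, had higher ratios (12.1 and 16.8). None of the 31-base words of CA11 occurs in another gene, and the antisense pseudogene SEC1P, which shares 74 of its exonic bases (3.57%), had 0, 3 and 2 counts.

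CA8, the related protein of Purkinje cells that binds the inositol trisphosphate receptor, lies on the minus strand of chromosome 8 from 60187347 to 60281412 (ENSG00000178538). It had 1, 0 and 5 counts in the control and PD-L1 knockdown 1 and 2, fell under the minimum for the fit, and was not distinguishable between libraries: 5 counts against 1 give a ratio of 4.67 with an interval from 0.523 to 221. CA10, the remaining acatalytic gene, had 0 counts.

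The cytosolic genes CA13, CA3 and CA2 lie in 1 cluster on the plus strand of chromosome 8, at 85220587 to 85284073 (ENSG00000185015), 85373436 to 85449040 (ENSG00000164879) and 85463852 to 85481493 (ENSG00000104267), together with CA1 on the opposite strand, whose span overlaps the start of CA3 without sharing exonic bases. CA2, the fast and widespread enzyme, had 179 counts in the control, 186 in PD-L1 knockdown 1 and 171 in PD-L1 knockdown 2. Its 2 libraries labelled knockdown lay on either side of the control, at ratios of 1.04 (0.845 to 1.29) and 0.892 (0.719 to 1.11), and the log2 fold change was -0.05 (SE 0.21). CA13, a cytosolic enzyme of several epithelia and the most counted member, had 235, 216 and 229 counts.

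The ratios of CA13 to the control were 0.923 (0.764 to 1.12) and 0.910 (0.755 to 1.10), and its log2 fold change was -0.13 (SE 0.20). CA2 and CA13 had the narrowest intervals of the members, and all of them included 1. The 5 genes outside the family whose profile over the 3 libraries lay nearest to that of CA13, among 10859 genes averaging 100 counts or more, were ACSL4, TBC1D23, RSPRY1, TOM1L1 and ZNF106, at root mean square distances of 0.000962 to 0.00253 on the log2 scale, a likeness over 3 points only. The antisense gene AC011773.3 shares 191 exonic bases (3.46%) with CA13 and had 1 count in each library, and AC011773.2, which overlaps CA13 without sharing exonic bases, had 1, 0 and 0. Of the 31-base words of CA13, 2.67% occur in another gene.

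CA3, the slow cytosolic enzyme of skeletal muscle and fat, was nearly uncounted in the control. It had 1 count there, 12 in PD-L1 knockdown 1 and 18 in PD-L1 knockdown 2, or 0.0292, 0.351 and 0.493 FPKM. The libraries labelled knockdown were both above the control, and their ratios to it were 12.1 (1.78 to 515) and 16.8 (2.65 to 700.5). A single control read sets these intervals, which start under 3-fold and have almost no upper limit. Between the libraries labelled knockdown the ratio was 1.39 (0.636 to 3.17). The log2 fold change was 3.70 (SE 1.25). In each library CA3 stayed far below CA2 on the FPKM scale. None of its 31-base words occurs in another gene. The antisense gene CA3-AS1 shares 165 of its exonic bases (7.14%) and had 9, 5 and 8 counts (log2 fold change -0.51, SE 0.96, edgeR adjusted p = 0.882). In the same cluster CA1 had 2, 0 and 2 counts. CA7, the remaining cytosolic gene and not a listed member, had 4, 9 and 1 counts (log2 fold change 0.28, SE 1.21, edgeR adjusted p = 0.952).

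**Figure D2:**
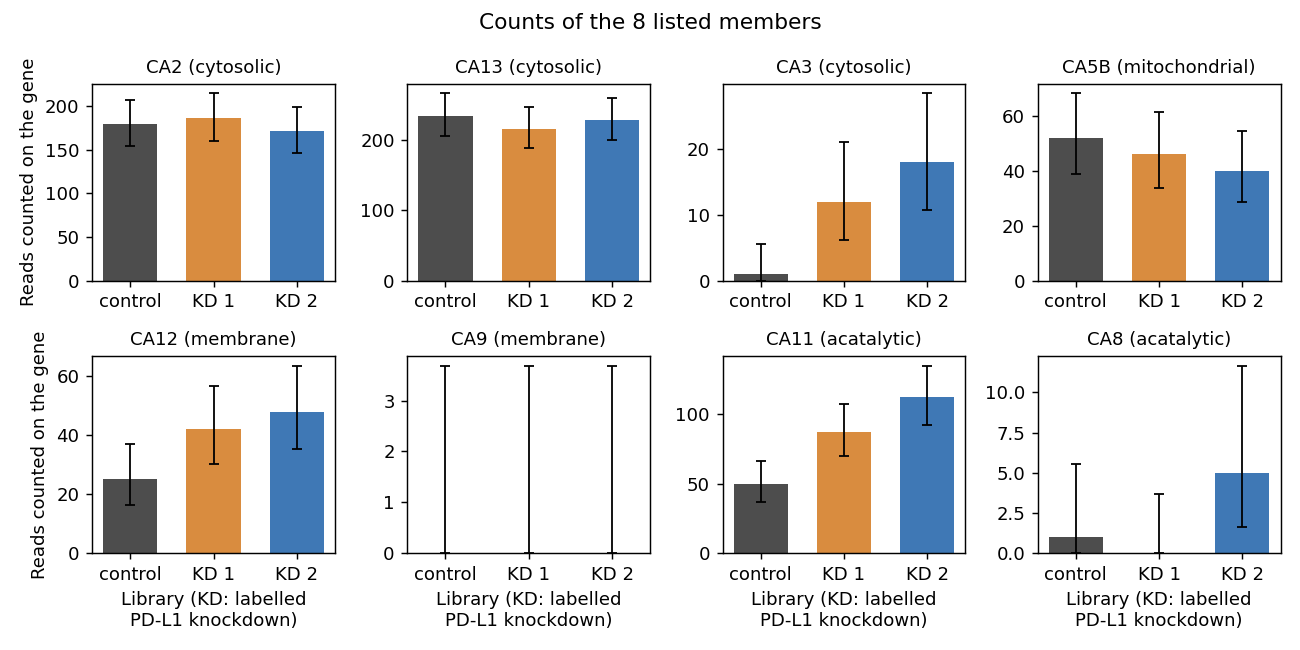
Reads counted on each of the 8 listed members (vertical axis, each panel on its own scale from 0) for the control and both PD-L1 knockdown libraries (KD 1 and KD 2, by their labels), 1 bar per library, with exact 95% Poisson intervals. CA3 goes from 1 to 12 and 18 counts and CA11 from 50 to 87 and 112, whereas CA2 stays between 171 and 186.

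Set side by side, the members fell into 3 patterns. CA3, CA11 and CA12 were higher in both libraries labelled knockdown, with counting intervals above 1 in each, as 10.3% of the genes tested had. CA3 was among the genes tested only through its counts in those libraries. CA2, CA13 and CA5B had intervals that included 1 in both, and 0 members had intervals below 1 in both, against 8.69% of the genes tested. CA8 had too few counts to place, and CA9 had none. For none of the 6 tested members, nor for CA8, did the interval for the ratio between the libraries labelled knockdown exclude 1. Over all 19849 genes tested it lay above 1 for 12.9% and below 1 for 13.3%. Members with few counts have wide intervals, so that nothing is read from this difference. The same control library enters both ratios, so that 1 deviating control count moves both, and with a single control the part of that library in the 3 higher members was not tested. Without CA3 the other 7 members had 542, 577 and 605 counts, and ratios to the control of 1.07 (0.949 to 1.20) and 1.04 (0.927 to 1.17).

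**Figure D3:**
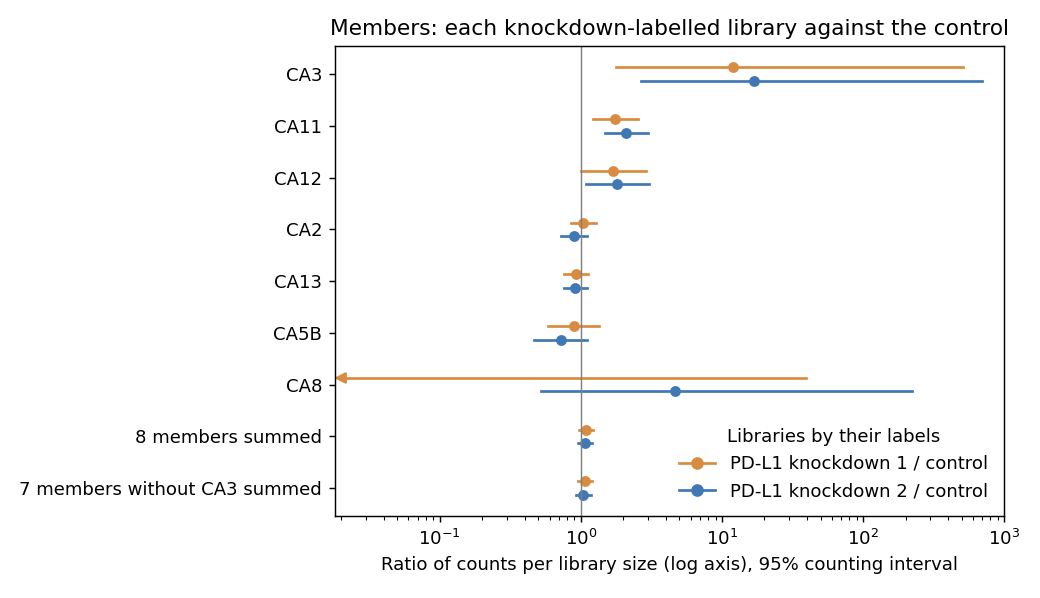
Ratio to the control (horizontal log axis) of each library labelled PD-L1 knockdown for the 7 members with counts and their sums, with exact 95% counting intervals; an arrow marks an interval that reaches 0. The intervals of CA3, CA11 and CA12 lie above 1 in both libraries, those of CA2, CA13 and CA5B include 1.

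In the fit over all genes with edgeR, 0 of the 6 members in it had an adjusted p under 0.05, against 0.353% of the 19849 genes tested (49 higher, 21 lower). Under the fold rule, an unadjusted p under 0.05 with an absolute log2 fold change above 1, 1 member was counted, CA3, against 2.48% of all genes, or 1.54% in the higher direction alone. At an unadjusted p under 0.05 there were 2 members, CA3 and CA11, with edgeR, where 11.7% of all genes were, and 1 with DESeq2, where 2.29% of all genes were. DESeq2 gave 0 members at the adjusted p. Nothing is read from these counts, since the list was drawn up with the same contrast known. CA3 also entered the fit only through its counts in the libraries labelled knockdown, having 1 count in the control. The log2 fold change was above 0 in 3 of the 6 members tested. Their median was 0.37, between CA2 at -0.05 and CA12 at 0.80, beside a median of 0.0015 over all genes tested.

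To place the members in their pathway, 5 lists of related genes were read from the same fit, and 0 of their genes had an adjusted p under 0.05 with edgeR or with DESeq2. At an unadjusted p under 0.05 there were 9 of the 101 tested with edgeR (8.91%, against 11.7% of all genes) and 2 with DESeq2 (1.98%, against 2.29%). Of 21 genes of acid-base transport, which move bicarbonate, protons and lactate across membranes, 18 were tested, 11 had a log2 fold change above 0 and the median was 0.08. Its most counted genes were BSG, the chaperone of the lactate carriers (8537, 9719 and 11098 counts, log2 fold change 0.24, SE 0.11, edgeR adjusted p = 0.365), and SLC4A2, a chloride-bicarbonate exchanger (3866, 4289 and 5005 counts, 0.22, SE 0.11, edgeR adjusted p = 0.449). The lactate exporter SLC16A3 had 2126, 2518 and 3264 counts (0.39, SE 0.12, edgeR adjusted p = 0.121). SLC4A3, another anion exchanger, had 86, 128 and 140 (0.59, SE 0.26, edgeR adjusted p = 0.342). All 4 were higher in both libraries labelled knockdown without passing the test, and they were named for the highest counts or largest fold changes. Lower in both were, for example, the well-counted SLC4A4 (1216, 1040 and 1180 counts, log2 fold change -0.18, SE 0.13) and SLC4A7 (732, 654 and 668, -0.19, SE 0.15).

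The hypoxia list, which belongs beside CA9 and CA12, had 20 genes, 19 of them tested. Of these, 9 had a log2 fold change above 0, and the median was -0.02. HIF1A, the oxygen-regulated factor itself, had 9565, 8223 and 8465 counts (log2 fold change -0.24, SE 0.11, edgeR adjusted p = 0.349), and its glycolytic target LDHA had 13175, 13067 and 13439 (-0.04, SE 0.11, edgeR adjusted p = 0.930). The glucose transporter SLC2A1 had 3129, 3469 and 4633 counts (0.32, SE 0.12, edgeR adjusted p = 0.224) and NDRG1 had 594, 705 and 819 (0.31, SE 0.15, edgeR adjusted p = 0.390). The list thus held genes on both sides of 0. CA9 was uncounted in libraries where RNA of HIF1A and LDHA was abundant. ADM and ANKRD37, of the same list, were low, at 28, 25 and 28 counts and at 15, 15 and 14. Whether the hypoxia-inducible factors were active was not tested.

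Binding partners of the related proteins and enzymes that use bicarbonate formed the third list, with 11 of 15 genes tested, 5 above 0 and a median of -0.00065. ITPR3, of the receptor family that CA8 binds, had 5631, 5753 and 7176 counts (log2 fold change 0.15, SE 0.11, edgeR adjusted p = 0.635). Of the carboxylases, ACACA, of fatty acid synthesis, had 4590, 4167 and 4781 (-0.09, SE 0.11, edgeR adjusted p = 0.816), and the mitochondrial PCCB and MCCC1 had 859, 979 and 1084 (0.22, SE 0.14, edgeR adjusted p = 0.558) and 236, 300 and 310 (0.32, SE 0.19, edgeR adjusted p = 0.509). Of the other family genes and pseudogenes, 5 of 11 were tested, 1 was above 0, and the median was -0.23. Among them CA15P1 had 13, 8 and 15 counts.

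Genes within 200 kb of a member numbered 105, of which 50 were tested, 27 were above 0 and the median was 0.04. Their most counted genes were TLN1 beside CA9 (16245, 16479 and 19116 counts, log2 fold change 0.08, SE 0.10, edgeR adjusted p = 0.806) and RPL18 beside CA11 (3471, 3849 and 4354, 0.19, SE 0.12, edgeR adjusted p = 0.524). E2F5, near CA13, had 190, 147 and 165 (-0.33, SE 0.22, edgeR adjusted p = 0.563). The 1 neighbour of 50 past the fold rule, against 2.48% of all genes, named after its values were seen, was the antisense gene USP3-AS1 near CA12, with 29, 4 and 7 counts (log2 fold change -2.42, SE 0.71, edgeR adjusted p = 0.0969). Near CA3 and CA11, 3 and 18 genes were tested and 0 of them passed the fold rule.

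**Figure D4:**
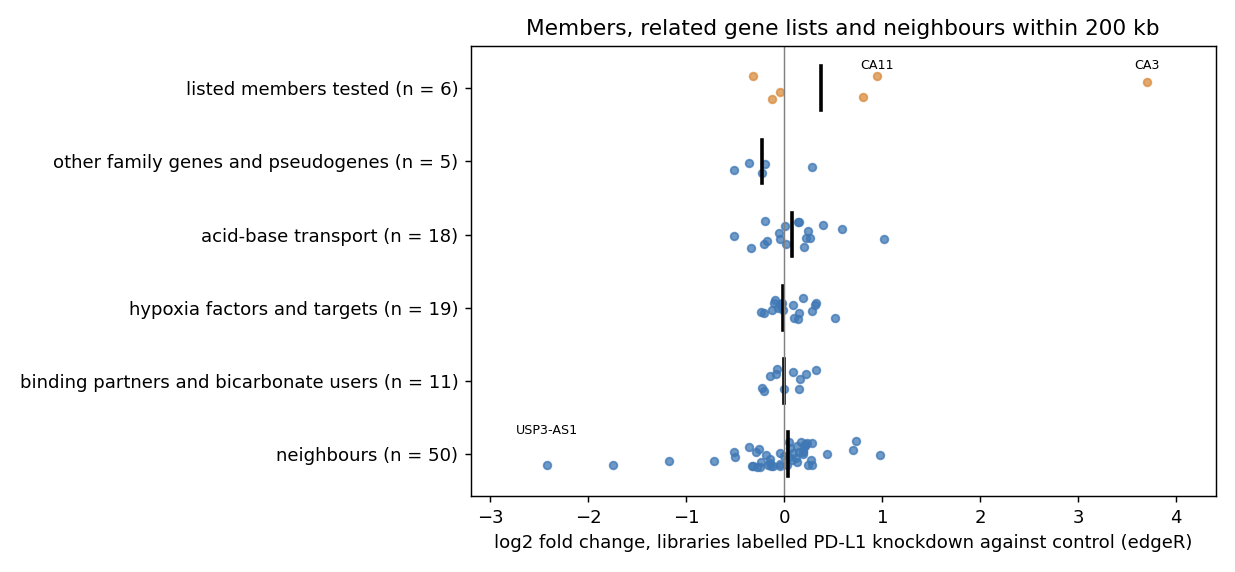
Log2 fold change (horizontal axis) between the control and both libraries labelled PD-L1 knockdown for each tested gene of the members and 5 related lists, with 1 point per gene, a black bar at the median and vertical jitter without meaning. CA3 lies at 3.70 and CA11 at 0.94, while the medians of the related lists lie between -0.23 and 0.08.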

How the data were processed

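RNA-seq libraries of DU145 cells, 1 control and 2 labelled PD-L1 knockdown, were grouped by their titles. The authors deposited for each library raw counts of reads per gene, without normalization, and FPKM values, which are those counts divided by gene length and library depth. The submitters' processing notes name Bowtie2 2.0.6, TopHat2 2.0.9, Cufflinks 2.1.1 and Cuffdiff 2.1.1. The counting tool, its use of strand and its treatment of reads matching several genes are not given in the sources used here. On the members' chromosomes, 12174 of 12174 genes had the position that GENCODE 29 (GRCh38) gives.

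A sum of 10 counts over the libraries was the minimum, and the 19849 genes that reached it were fitted with edgeR 4.0.16 in R 4.3.3 (TMM, glmQLFit and glmQLFTest), comparing both PD-L1 knockdown libraries with the control, with Benjamini-Hochberg adjustment over all of them. The control has no replicate, so that 1 residual degree of freedom per gene remains, from both libraries labelled knockdown. The estimated prior degrees of freedom were infinite, so the quasi-likelihood dispersion was pooled across genes and is not a gene's own spread. Each SE is the absolute log2 fold change divided by the square root of the F statistic. Ratios of libraries carry exact Clopper-Pearson 95% intervals on TMM-scaled sizes. The fit was tested on simulated data. DESeq2 1.42.0, other normalizations and minimums, log2(FPKM + pseudocount) with 0.1 or 1, and leaving out a library were the alternatives.

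The members and lists were chosen with earlier results of these data known. Named were the members, counted family genes, CD274, genes whose span overlaps a member, the 5 genes most like the most counted member and, in each other list, genes with an adjusted p under 0.05 and, at a mean of at least 100 counts, the 2 most counted and the 2 with the largest absolute log2 fold change. SLC4A4, SLC4A7, ADM and ANKRD37 were named in addition, after their values were seen. Coding sequences were read from GENCODE 29 and aligned after translation with MAFFT 7.526. RT-qPCR, Western blotting and ChIP of the study were not analysed here. Some marker genes are not reported here.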

Additional observations from a re-analysis of the deposited data

How the results depend on the processing

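With edgeR the number of genes with an adjusted p under 0.05 was 70, and it was 16 with a minimum of 30 counts and 6 with DESeq2. The number past the fold rule was 492, and it was 264 and 46 under the same settings. Of the members 0 were called and 1 passed the fold rule in each of the 6 fits, and the 5 lists had 0 called genes in each. CA2 changed direction, from a log2 fold change of -0.048 to 0.062 without PD-L1 knockdown 2, against -0.16 without PD-L1 knockdown 1. CA11 had 0.81 and 1.06 in the same pair, above 1 only without PD-L1 knockdown 1. CA3 ranged from 0.46 on the log2(FPKM + 1) scale, which understates low genes, to 4.07 without PD-L1 knockdown 1, and CA12 from 0.19 to 0.84. Leaving out the control leaves no comparison. No paired analysis was possible because the control is a single library that carries no replicate number. Depth limits CA3, CA8, CA9 and CA12 most, each with 25 counts or fewer in the control.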
